A study of Mus musculus with 24 samples.

Results

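The 36 genes described here make cholesterol and fatty acids, or control that synthesis and the export of sterols, and they are 36 of the 48544 genes in the deposited tables. They were chosen by name and not by a threshold on their values. Each of the 36 stood on 1 row of the tables, and all 36 passed the filter on low values. By role they comprise 9 genes of the mevalonate and squalene steps, 8 of the sterol ring steps, 6 regulators and carriers of sterols, 9 genes of fatty acid synthesis, and 4 genes of sterol export, receptor breakdown and oxysterol formation.

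Messenger RNA was sequenced in 24 libraries of wild-type C2C12, a mouse cell line of muscle precursors (myoblasts) that leave the cell cycle and fuse into contractile fibres, the myotubes, once serum is withdrawn. The libraries form 6 groups of 4. Day 0 myoblasts were collected near confluence in medium with 10% fetal bovine serum, and day 7 myotubes after 7 days in 2% serum. From day 7, myotubes were kept in 2% serum with either 1% ethanol, the vehicle, or 100 µM dexamethasone, a synthetic glucocorticoid used to provoke atrophy, and were collected after 24 h (day 8) or 72 h (day 10). Ethanol is named in the labels of the vehicle groups alone, so whether the dexamethasone medium also held it is not known. C2C12 is 1 cell line grown alone, without the nerve, vessels or blood supply of muscle. The labels do not say that replicates were separate cultures, so p-values measure the spread between these libraries, which may be technical.

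Cells build cholesterol from acetyl-CoA through mevalonate, squalene and lanosterol, and fatty acids from acetyl-CoA through malonyl-CoA. The SREBP transcription factors, encoded by Srebf1 and Srebf2, switch on most genes of both routes. The protein Scap carries them from the endoplasmic reticulum for activation when sterols run low, and the Insig proteins hold them back when sterols are ample. The liver X receptors respond to oxysterols and switch on the exporter genes Abca1 and Abcg1, and also Mylip and Srebf1. Cultured cells cover their need for cholesterol by synthesis and by uptake of lipoproteins from serum.

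Levels below are TPM, a length-scaled abundance computed by the authors that can be compared between genes, and group values are mean ± SD (n = 4). Differences are on the log2 scale of the authors' other table, whose values are shrunken, so they understate the fold changes. Tests are limma-trend over 16257 genes with Benjamini-Hochberg adjustment, and a gene was called higher or lower at an adjusted p under 0.05. A fold is the ratio of both mean TPM values, left out where the smaller mean was under 0.5 TPM. In bulk RNA, fewer cells of a type and less RNA per cell cannot be told apart.

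How deeply the libraries were sequenced is not known from TPM. In each library 12428 to 13030 genes reached 1 TPM. The labelled state of the cells matched its markers: 11 myotube markers summed to between 335 and 529 TPM in day 0 myoblasts and to at least 19053 TPM in every other library. Both replicate 1 libraries at 72 h held RNA of genes that were near 0 in the other libraries of their group. Of 38 genes that were near 0 in the other 3 vehicle libraries at 72 h but present with dexamethasone, the replicate 1 vehicle library held a median of 13.0% of the level in the replicate 1 dexamethasone library. In the reverse direction, 34 genes stood in the replicate 1 dexamethasone library at a median of 19.8% of the replicate 1 vehicle library. Their medians in the other 3 were no more than 1.27%, which follows from the choice of genes. Genes were chosen by a mean in those 3 of at most 2% of the other group's. No other replicate was held out in this way, so how far another would stand apart is not known. Counts and called members at 72 h are therefore given with and without both of these libraries.

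**Figure D1:**
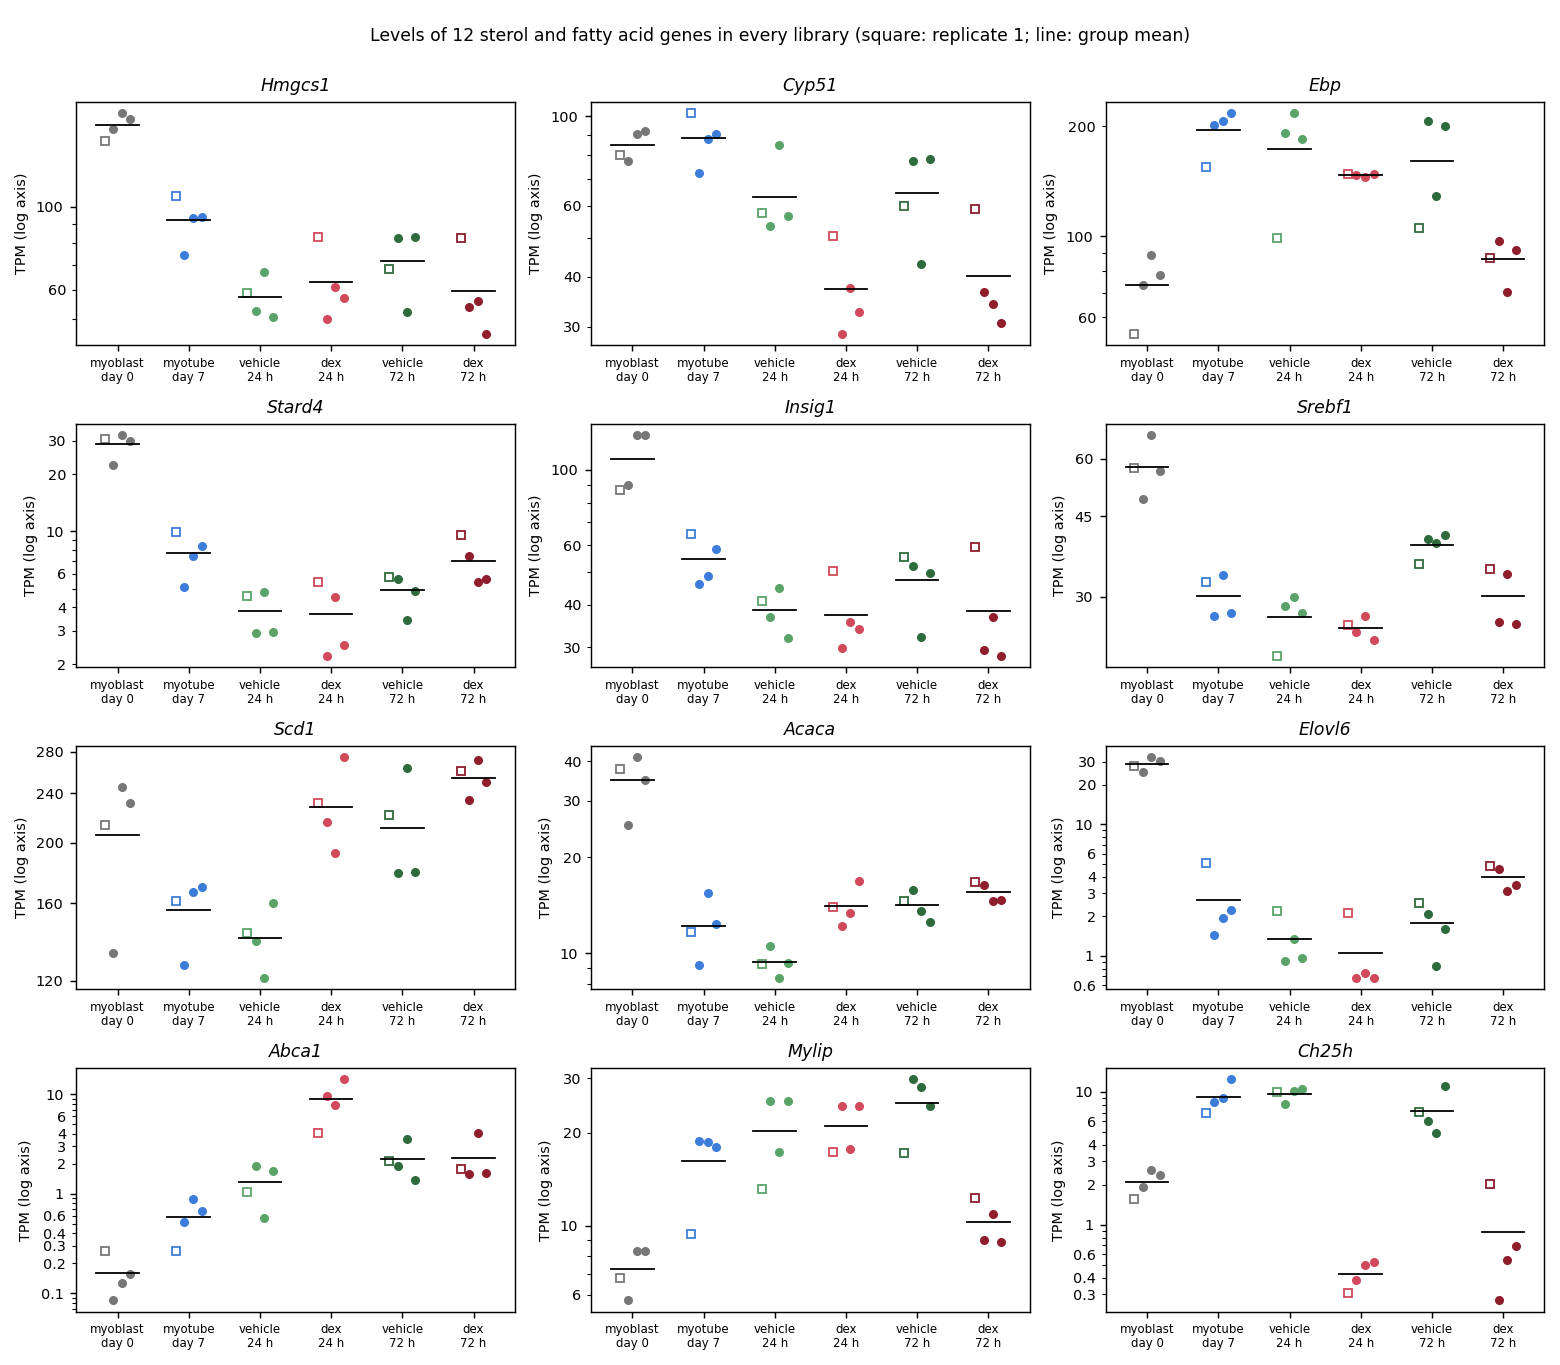
TPM of 12 of the 36 genes in every library, on log axes, by group; squares are replicate 1, circles are replicates 2 to 4, and lines are group means. Hmgcs1, Stard4 and Elovl6 are highest in all 4 myoblast libraries, Abca1 is highest with dexamethasone at 24 h, and Ch25h is lowest with dexamethasone at either time.

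The enzymes of sterol synthesis varied together from library to library. After each group's mean was taken out, the 136 pairs among the 17 enzymes of the mevalonate, squalene and ring steps had a median correlation of 0.713 over the 24 libraries. The 36 pairs among the 9 fatty acid genes had a median of 0.472, and the 153 pairs across both routes a median of 0.402. These are descriptions of deviations that share the same libraries and normalisation. Both replicate 1 libraries at 72 h were included, and no median over pairs of all genes was computed.

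Nsdhl, a dehydrogenase of the sterol ring steps, followed the mean of the other sterol enzymes most closely (r = 0.978), and Cyp51, the lanosterol demethylase, came next (r = 0.964). Hmgcs1, which makes HMG-CoA, had r = 0.934, and Sqle, the squalene epoxidase, r = 0.896. Among the other roles, the carrier Stard4 (r = 0.825), the SREBP retention gene Insig1 (r = 0.825) and the desaturase Fads2 (r = 0.821) varied with the enzymes. Both Ebp and Dhcr7, of the ring steps, stood outside this: Ebp, a sterol isomerase, had r = 0.288, and Dhcr7, the reductase of a last step, had r = -0.10. Insig2 (r = -0.47) and the exporter Abca1 (r = -0.65) ran the opposite way. Over all 16256 genes compared with the same mean, the median r was -0.05, with a 5th percentile of -0.50 and a 95th of 0.511.

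**Figure D2:**
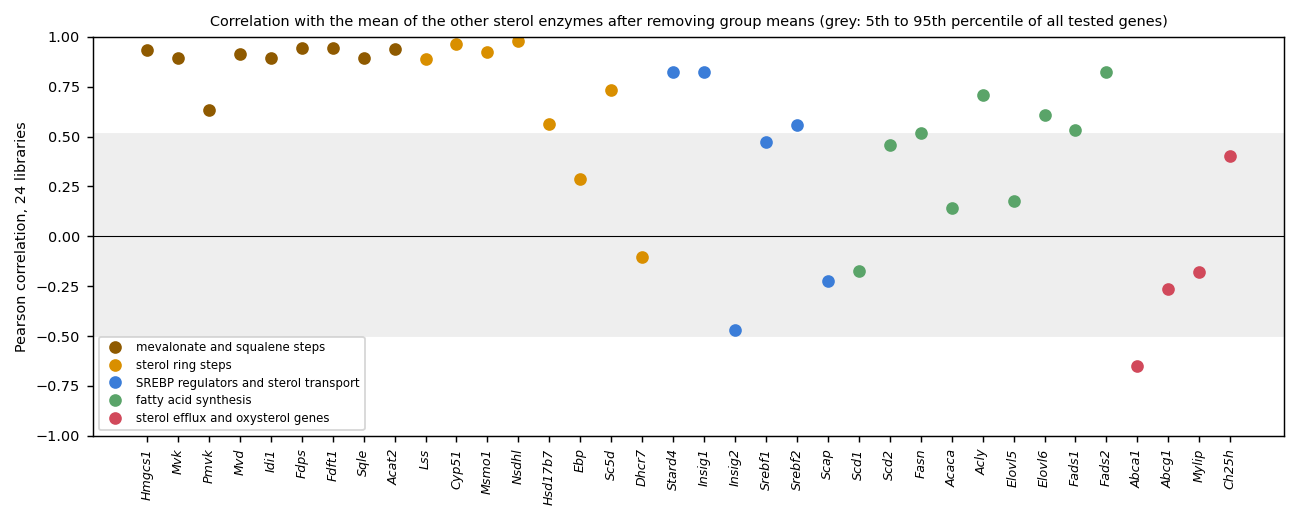
Pearson correlation, over 24 libraries with group means removed, of each of the 36 genes with the mean of the other sterol enzymes; colours mark the 5 roles and the grey band spans the 5th to 95th percentile of all tested genes (-0.50 to 0.511). Most enzymes of the mevalonate and ring steps lie near the top, with Nsdhl at 0.978, and Abca1 lies lowest at -0.65.

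Vehicle 24 h replicate 3 showed this joint variation within 1 group. The 17 sterol enzymes summed to 1069 TPM there and to 715, 713 and 722 TPM in vehicle replicates 1, 2 and 4. The 9 fatty acid genes summed to 574 TPM there, within the 525 to 598 TPM of the other 3, but Scd1 and Scd2 make up most of that sum. Among the 9, Fads2 was highest in that library (46.4 against 23.7 to 32.6 TPM), as was Acly (25.7 against 19.5 to 23.4 TPM), while Scd1 was lowest there (121 against 139 to 160.0 TPM). The mean log2 value of the 9 was also highest there, at 4.85 against 4.71 to 4.80.

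Promoter motifs are described next, and their part in the joint variation was not tested. The RefSeq promoter table (build GRCm38.p6, 250 bases before to 50 after each start) was searched on both strands. It matched 28 of the 36 genes, with 36 promoters, and no entry was used for Fdps, Fdft1, Sqle, Stard4, Scd1, Scd2, Fads1 and Abcg1. The 220 bases before the start are shown for 6 genes: Hmgcs1, the member with an exact sterol element; Nsdhl, the enzyme closest to the joint variation; Ebp, an enzyme outside it; Fasn, for the fatty acid route; and Abca1 and Ch25h, which had the largest responses to dexamethasone. Each is written 5′ to 3′ on the strand of the gene, and capitals mark matches to the sterol regulatory element TCACNCCAC with up to 1 mismatch, to the NF-Y box CCAAT on either strand and to the E-box CACGTG. A box on the other strand reads as ATTGG.
Hmgcs1, chr13:119690131-119690350, plus strand: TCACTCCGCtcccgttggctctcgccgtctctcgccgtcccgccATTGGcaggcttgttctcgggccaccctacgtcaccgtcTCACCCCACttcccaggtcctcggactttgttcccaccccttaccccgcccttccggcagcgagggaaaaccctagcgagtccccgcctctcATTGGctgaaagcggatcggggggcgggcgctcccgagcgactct
Nsdhl, chrX:72918301-72918520, plus strand: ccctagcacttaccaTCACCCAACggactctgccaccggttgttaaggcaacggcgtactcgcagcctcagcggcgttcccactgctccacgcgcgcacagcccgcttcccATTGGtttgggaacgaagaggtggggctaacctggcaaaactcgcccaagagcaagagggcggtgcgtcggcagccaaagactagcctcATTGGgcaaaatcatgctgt
Ebp, chrX:8193513-8193732, minus strand: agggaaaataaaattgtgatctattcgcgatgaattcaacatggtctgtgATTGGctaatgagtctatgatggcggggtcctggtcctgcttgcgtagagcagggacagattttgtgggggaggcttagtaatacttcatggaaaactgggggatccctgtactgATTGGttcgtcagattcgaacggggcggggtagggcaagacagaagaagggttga
Fasn, chr11:120824548-120824767, minus strand: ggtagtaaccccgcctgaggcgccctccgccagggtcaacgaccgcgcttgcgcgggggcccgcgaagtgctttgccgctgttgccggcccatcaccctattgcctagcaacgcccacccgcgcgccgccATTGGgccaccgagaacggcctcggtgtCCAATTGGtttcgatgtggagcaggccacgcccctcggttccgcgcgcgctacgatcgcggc
Abca1, chr4:53159896-53160115, minus strand: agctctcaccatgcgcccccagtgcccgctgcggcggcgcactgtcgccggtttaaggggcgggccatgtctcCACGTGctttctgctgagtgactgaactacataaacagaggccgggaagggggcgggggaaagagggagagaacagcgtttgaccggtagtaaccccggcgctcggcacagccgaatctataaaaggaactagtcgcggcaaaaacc
Ch25h, chr19:34475149-34475368, minus strand: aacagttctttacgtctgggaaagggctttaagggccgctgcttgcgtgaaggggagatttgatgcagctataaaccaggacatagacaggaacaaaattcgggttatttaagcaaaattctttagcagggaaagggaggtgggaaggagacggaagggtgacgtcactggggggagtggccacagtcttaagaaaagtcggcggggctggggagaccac

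The exact sterol regulatory element stood in 1 of the 36 promoters, that of Hmgcs1, 137 bases before the start, and in 1.24% of all 32851 promoters. With 1 mismatch allowed it stood in 13 of 36 (36.1%), beside 24.2% of all promoters. The NF-Y box stood in 22 of 36 (61.1%), beside 37.4%, and the E-box in 8 of 36 (22.2%), beside 7.15%. Overlapping promoters of Scap hold the same E-box, which is thus counted more than once. By gene, the NF-Y box stood in 21 of 28, beside 41.1% of all genes with promoters, and the E-box in 7 of 28, beside 8.09%. In the stretches shown, Hmgcs1, Nsdhl and Ebp hold 2 NF-Y boxes each and Fasn holds 3, of which 2 overlap on opposite strands. The E-box of Abca1 lies 147 bases before the start, and Ch25h has no match to any of these motifs. Liver X receptors bind a direct repeat, searched here as a pair of AGGTCA motifs with 4 bases between. The glucocorticoid response element was searched as AGAACA and TGTTCT with 3 bases between. These fixed forms were in none of the 36, even with 1 mismatch. With 1 mismatch they stood in 0.25% and 0.164% of all promoters. A match describes letters in this window and is not a binding site. Forms with more mismatches were not searched, so the lack of a match does not show that a gene lacks such an element.

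Differentiation was addressed by comparing day 7 myotubes with day 0 myoblasts. The module was mostly lower in myotubes: 22 of 36 genes were lower, 5 higher and 9 not called. The 75.0% of the module that was called stands beside 60.3% of all genes tested, and among all genes 30.5% were higher and 29.8% lower. On log2(TPM + 0.1), 4 were higher and 23 lower, beside 58.3% of all genes called (25.8% higher, 32.5% lower). The median log2 difference was -0.39 over the module and 0.01 over all genes. Both routes took part, since 7 of 9 genes of the mevalonate and squalene steps and 8 of 9 fatty acid genes were lower. The 3 higher calls among the 4 genes of export, receptor breakdown and oxysterols went the other way.

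In the mevalonate and squalene steps, Hmgcs1 stood at 150.0, 162, 179 and 172 TPM in myoblasts (replicates 1 to 4, as in all lists of 4 values) and at 107, 74.5, 93.2 and 93.9 TPM in myotubes. Idi1, the isomerase of isopentenyl diphosphate, stood at 99.6, 143, 126 and 127 TPM in myoblasts and at 73.9, 56.7, 55.4 and 67.8 TPM in myotubes. Sqle stood at 127, 98.9, 138 and 139 TPM in myoblasts and at 78.4, 65.6, 82.0 and 75.2 TPM in myotubes. The groups did not overlap for any of these 3 genes. Hmgcs1 was 1.80-fold lower (log2 difference -0.55, SE 0.13, adjusted p = 0.000802), Idi1 1.95-fold lower (adjusted p = 0.00475) and Sqle 1.67-fold lower (adjusted p = 0.00521). Acat2, which makes acetoacetyl-CoA, was 2.49-fold lower, the phosphomevalonate kinase Pmvk 2.09-fold, the mevalonate kinase Mvk 1.76-fold and the farnesyl diphosphate synthase Fdps 1.55-fold lower. The Fdps call was lost when any 1 of the libraries numbered 2 to 4 in either group was left out, with an adjusted p up to 0.108. Mvd (log2 difference -0.14) and the squalene synthase Fdft1 (-0.11) were not called.

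In the ring steps the genes went different ways. Lss, the lanosterol synthase, was 2.33-fold lower (log2 difference -0.83, adjusted p = 0.000223), Hsd17b7, a keto-reductase, 1.80-fold lower and the desaturase Sc5d 1.36-fold lower. The Sc5d call was lost without myoblast replicate 4 (adjusted p = 0.0534). Ebp stood at 53.8, 73.6, 88.8 and 78.0 TPM in myoblasts and at 155, 201, 207 and 217 TPM in myotubes. All 4 myotube libraries lay above all 4 myoblast libraries, and Ebp was 2.65-fold higher (log2 difference 1.02, SE 0.15, adjusted p = 3.15e-06). Cyp51 (0.09), Msmo1, a methylsterol oxidase (-0.33), Nsdhl (-0.22) and Dhcr7 (-0.08) were not called. Of the 8 ring-step genes, Ebp had the highest mean in myotubes, at 195 ± 27.5 TPM, and Hsd17b7 and Lss, the latter at 12.2 ± 1.96 TPM, the lowest.

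Among regulators and carriers, Stard4, which moves cholesterol between membranes, stood at 30.7, 22.3, 32.1 and 29.8 TPM in myoblasts and at 9.89, 5.09, 7.39 and 8.34 TPM in myotubes, with no overlap. It was 3.74-fold lower (log2 difference -1.34, SE 0.18, adjusted p = 1.73e-06). Insig1 went from 87.5, 90.2, 127 and 126 TPM to 64.9, 46.2, 48.6 and 58.6 TPM, 1.97-fold lower (adjusted p = 0.00149). Both SREBP genes were lower, Srebf1 1.91-fold (adjusted p = 1.92e-07) and Srebf2 1.49-fold (adjusted p = 0.000658). Srebf1 was at 57.6 ± 7.68 TPM in myoblasts and 30.2 ± 3.15 TPM in myotubes, without overlap, while the libraries of Srebf2 overlapped, at 83.8 to 139 TPM against 67.7 to 91.5 TPM. Insig2, the other retention gene, was called higher by 0.22 on the log2 scale (adjusted p = 0.0358), but its groups overlapped. That call was lost on log2(TPM + 0.1) (adjusted p = 0.145) and without any 1 of 5 libraries, myoblast replicates 1, 2 and 3 and myotube replicates 2 and 4 (adjusted p up to 0.134). Scap, at 26.3 ± 4.08 and 20.8 ± 1.93 TPM, was not called (adjusted p = 0.0724).

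Fatty acid synthesis held the deepest fall. Elovl6, an elongase of saturated fatty acids, stood at 27.6, 24.8, 32.5 and 30.4 TPM in myoblasts and at 5.10, 1.44, 1.93 and 2.24 TPM in myotubes. It was 10.8-fold lower (log2 difference -2.58, SE 0.26, adjusted p = 2.06e-08), and its highest myotube library lay far below its lowest myoblast library. Fasn, the fatty acid synthase, went from 63.7, 73.9, 71.5 and 53.6 TPM to 25.3, 18.0, 27.7 and 19.6 TPM, 2.90-fold lower (adjusted p = 3.67e-08), again without overlap. Acaca, the acetyl-CoA carboxylase, was 2.86-fold lower and Acly, which supplies acetyl-CoA from citrate, 2.79-fold lower. The desaturases Fads2 and Fads1 were 2.23-fold and 2.11-fold lower, Scd2 1.58-fold and the elongase Elovl5 1.5-fold lower. Scd1, the other stearoyl-CoA desaturase of the module, was at 206 ± 50.5 and 156 ± 19.5 TPM and was not called (adjusted p = 0.101). Scd1 and Scd2 are close paralogues, so reads could be shared between them.

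Ch25h, Mylip and Abca1 rose. Ch25h, a hydroxylase that makes an oxysterol from cholesterol, stood at 1.56, 1.94, 2.58 and 2.35 TPM in myoblasts and at 7.00, 8.35, 9.08 and 12.5 TPM in myotubes. It was 4.38-fold higher, without overlap (log2 difference 1.53, SE 0.23, adjusted p = 6.34e-06). Mylip, a ubiquitin ligase that marks lipoprotein receptors for breakdown, was 2.23-fold higher, at 7.28 ± 1.25 and 16.2 ± 4.57 TPM (adjusted p = 7.52e-05). Abca1, which loads cholesterol onto apolipoproteins, stood at 0.269, 0.0847, 0.127 and 0.156 TPM in myoblasts and at 0.265, 0.517, 0.888 and 0.676 TPM in myotubes. Its groups overlapped through replicate 1 of both, and it was called higher (log2 difference 1.03, adjusted p = 0.00327), though not on log2(TPM + 1) (adjusted p = 0.187). Abcg1, the other exporter, was at 1.29 ± 0.347 and 1.14 ± 0.306 TPM and not called.

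Serum differed between these groups, at 10% and 2%, and cannot be told apart from differentiation. The 8 proliferation markers summed to between 1446 and 1555 TPM in myoblasts and to between 192 and 394 TPM in myotubes, and all 8 were lower. The 10 fibroblast markers summed to between 965 and 1431 TPM and to between 2200 and 3134 TPM, with 4 of the 8 tested higher, and the 10 reserve cell markers to between 798 and 948 TPM and to between 335 and 477 TPM, with 7 lower and 1 higher. Tcf21, which marks fibroblast precursors, was at 0 in every library. The part of these markers in the differences of the lipid genes was not tested.

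Genes outside the module were read from lists of the same pathway. Their counts stand beside 30.5% higher and 29.8% lower over all genes tested. Of 12 other sterol enzymes, 3 were higher and 7 lower in myotubes, the latter led by Lbr, the lamin B receptor with sterol reductase activity, which fell from 44.9 ± 0.993 to 16.6 ± 1.73 TPM. Of 15 SREBP processing and cofactor genes, 8 were lower, with the transcription factor Sp1 lowest at a log2 difference of -0.61, and 3 were higher, with Nfe2l1 at 0.53. In cholesterol uptake and transport, 6 of 20 were lower and 5 higher. There the lipoprotein receptor Lrp8 went from 13.1 ± 1.79 to 1.23 ± 0.310 TPM while its relative Vldlr went from 1.56 ± 0.683 to 8.29 ± 3.72 TPM. Of 12 genes listed with the liver X receptors, 4 were higher and 2 lower (Nr1h5 2.09 and Abca7 -0.87 on the log2 scale). Nr1h5, counted among the higher, encodes a related nuclear receptor, not a liver X receptor, and was below 1 TPM in both groups. Of 29 other fatty acid and glycerolipid genes tested, 9 were higher and 12 lower, with the kinase subunit Prkaa2 at 1.30 and the elongase Elovl7 at -1.30.

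**Figure D3:**
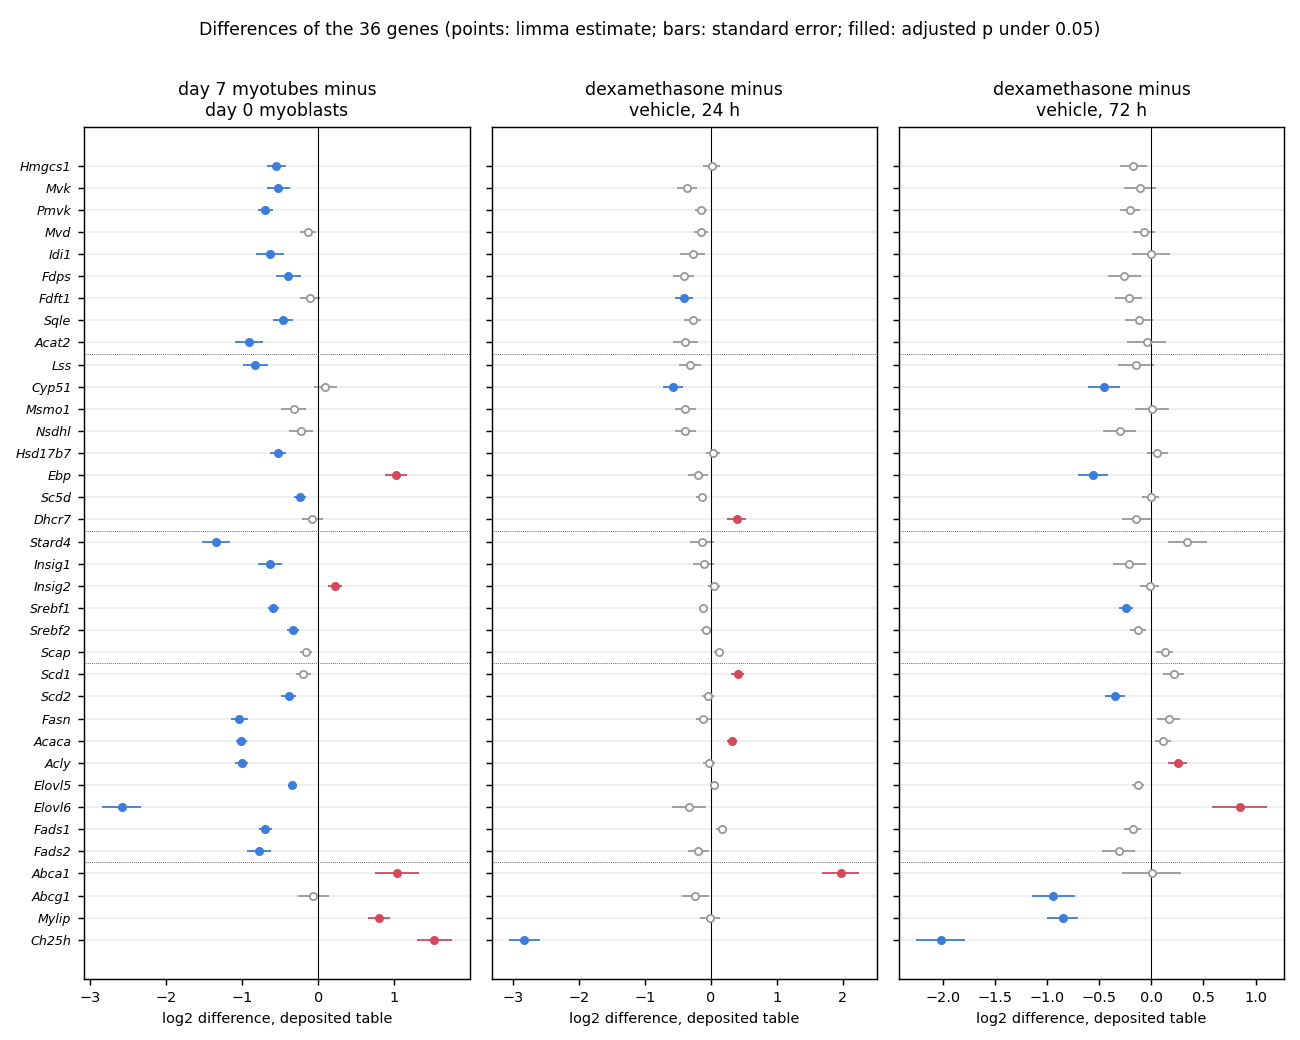
Log2 differences of the 36 genes in the authors' log2 table for differentiation and for dexamethasone at 24 h and 72 h; points are limma estimates, bars standard errors, red higher, blue lower, open grey not called, and dotted lines separate the 5 roles. In differentiation 22 genes lie in blue on the left, and with dexamethasone the widest departures are Abca1 and Ch25h at 24 h and Ch25h at 72 h.

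The change from day 7 to 24 h in vehicle medium was addressed next, since it is the background of the dexamethasone comparison at 24 h. Only Hsd17b7 was called, lower in vehicle: it went from 10.9, 7.99, 11.0 and 10.1 TPM to 5.03, 5.56, 6.64 and 5.21 TPM, without overlap (1.78-fold, log2 difference -0.54, adjusted p = 0.0468). This 1 of 36 (2.78%) stands beside 0.209% of all genes tested, of which 0.0984% were higher and 0.111% lower. It was lost on log2(TPM + 0.1) (adjusted p = 0.07), where 0.0262% of all genes were called, 0.0131% in either direction, and without day 7 replicate 1, 3 or 4 or vehicle replicate 2 or 4 (adjusted p up to 0.19). The module had a common sign more than single calls: 30 of 36 estimates, with Hsd17b7 among them, lay below 0. Their median was -0.25 over the 36, beside 0.00 over all genes. Since the sterol enzymes varied together from library to library, these signs are not independent.

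The sterol enzymes again summed this up. Their 17 levels added to 1096 ± 89.4 TPM at day 7 and to 805 ± 176 TPM at 24 h in vehicle, against 1473 ± 151 TPM in myoblasts. Lss (log2 difference -0.63, adjusted p = 0.0758), Stard4 (-0.65, adjusted p = 0.0807) and Hmgcs1 (-0.45, adjusted p = 0.0832) did not pass the threshold, although their libraries did not overlap. Without vehicle replicate 3, the library with high sterol enzymes, 6 of the 36 were called, all lower: Hsd17b7 and, in addition, Fdft1, Sqle, Lss, Sc5d and Acat2. In that fit 2.02% of all genes were called (0.701% higher, 1.32% lower), more than with all libraries. This library stood out by its high sterol enzymes, so leaving it out lowers their vehicle means. Abca1, Abcg1, Mylip and Ch25h all had estimates above 0, and none was called.

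**Figure D4:**
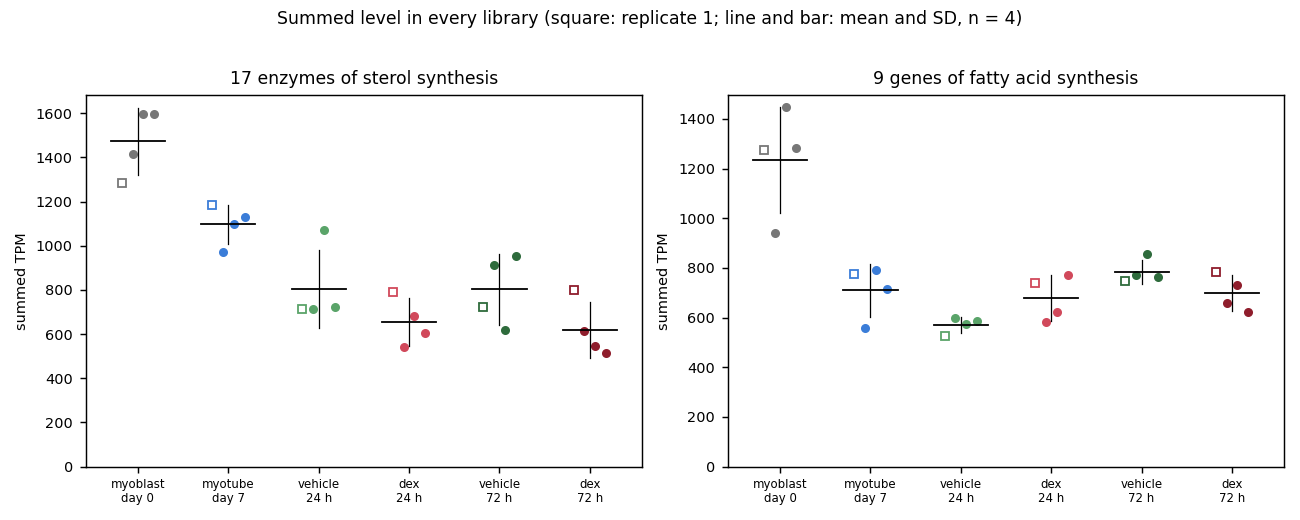
Summed TPM of the 17 sterol enzymes and of the 9 fatty acid genes in every library; squares are replicate 1, lines and bars are mean and SD (n = 4). The sterol sum runs from 1473 TPM in myoblasts to 618 TPM with dexamethasone at 72 h, and vehicle 24 h replicate 3 stands at 1069 TPM above the other 3 of its group.

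From 24 h to 72 h in vehicle, 2 of the 36 genes were called, both higher (5.56%, beside 4.36% of all genes tested, 2.67% higher and 1.69% lower). Srebf1 went from 22.3, 28.7, 30.0 and 27.7 TPM to 35.3, 40.1, 39.4 and 40.9 TPM (1.43-fold, log2 difference 0.27, adjusted p = 0.0388). Acaca went from 9.28, 10.5, 8.34 and 9.34 TPM to 14.6, 15.8, 13.6 and 12.5 TPM (1.51-fold, log2 difference 0.31, adjusted p = 0.0376). Neither pair of groups overlapped. Without both replicate 1 libraries at 72 h the adjusted p was 0.0476 for Srebf1 and 0.0607 for Acaca, and 2.34% of all genes were called (1.27% higher, 1.06% lower). Each call was lost when any 1 of most libraries was left out: for Srebf1 any but vehicle 24 h replicate 2 (adjusted p up to 0.112), and for Acaca any but vehicle 24 h replicate 2 and vehicle 72 h replicate 4 (adjusted p up to 0.168). On TPM the median of all genes rose by 0.13 in this comparison, so the ratios of mean TPM given for Srebf1 and Acaca include that general shift. All genes split into 434 higher and 275 lower in the main test and into 219 (1.44%) and 51 (0.334%) on log2(TPM + 0.1), where 1.77% were called and the same 2 members were higher.

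The early response to dexamethasone was addressed by comparing it with vehicle at 24 h. The exporter gene Abca1 rose and the oxysterol gene Ch25h fell, and no other of the 36 changed as far. In all, 4 genes were higher and 3 lower, and this 19.4% stands beside 25.4% of all genes tested (13.2% higher, 12.2% lower), so the module as a whole was not called more often than other genes. The median log2 difference was -0.14, beside -0.01 over all genes. All genes split into 2143 higher and 1991 lower, and into 2132 (14.0%) and 1160 (7.61%) on log2(TPM + 0.1), where 21.6% were called and the module had 4 higher and 2 lower.

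Abca1 stood at 1.03, 1.91, 0.567 and 1.69 TPM in vehicle and at 4.08, 9.54, 7.91 and 14.2 TPM with dexamethasone. Every treated library lay above every vehicle library, and the mean was 6.87-fold higher (log2 difference 1.96, SE 0.28, adjusted p = 2.77e-05). Ch25h stood at 9.99, 8.13, 10.2 and 10.5 TPM in vehicle and at 0.305, 0.382, 0.496 and 0.521 TPM with dexamethasone. It was under 1 TPM in all 4 treated libraries, and the groups did not overlap (log2 difference -2.83, SE 0.23, adjusted p = 1.24e-08). Abcg1, at 2.14 ± 0.858 and 1.78 ± 0.594 TPM, and Mylip, at 20.3 ± 6.09 and 21.0 ± 3.96 TPM, were not called. So of Abca1, Abcg1 and Mylip, all targets of liver X receptors, Abca1 alone was called at 24 h. The differences between these genes were not tested.

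In fatty acid synthesis, Scd1 stood at 143, 139, 121 and 160.0 TPM in vehicle and at 231, 216, 192 and 275 TPM with dexamethasone. It was 1.62-fold higher without overlap (log2 difference 0.40, SE 0.10, adjusted p = 0.00569). Acaca went from 9.28, 10.5, 8.34 and 9.34 TPM to 13.9, 12.1, 13.4 and 16.8 TPM, 1.5-fold higher without overlap (adjusted p = 0.00449). The other 7 genes of the group were not called. Fads1, at 29.8 ± 2.74 and 37.6 ± 3.92 TPM, did not overlap between groups but had an adjusted p of 0.162. Fasn was at 21.4 ± 4.42 and 20.2 ± 2.35 TPM and Acly at 22.3 ± 2.81 and 23.1 ± 2.68 TPM.

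Sterol synthesis showed single calls. Cyp51 stood at 57.7, 53.4, 84.9 and 56.6 TPM in vehicle and at 50.5, 28.8, 37.5 and 32.6 TPM with dexamethasone. It was 1.69-fold lower without overlap (log2 difference -0.58, SE 0.15, adjusted p = 0.00687), with an adjusted p of at most 0.0392 when any 1 library was left out. Fdft1 went from 34.5, 35.7, 59.7 and 34.8 TPM to 32.8, 23.3, 31.2 and 26.6 TPM, 1.44-fold lower (adjusted p = 0.0237). That call was lost on log2(TPM + 0.1) (adjusted p = 0.0516) and without vehicle replicate 3 or dexamethasone replicate 2 or 4 (adjusted p up to 0.127). Dhcr7 went from 34.4, 21.9, 23.4 and 28.7 TPM to 53.8, 36.5, 32.0 and 52.2 TPM, 1.61-fold higher with overlap (adjusted p = 0.0478). It was lost without dexamethasone replicate 1 or 4 or vehicle replicate 2, 3 or 4 (adjusted p up to 0.151). Of the 17 sterol enzymes, 14 estimates lay below 0, and apart from Cyp51 and Fdft1 none of these was called. The summed level of the 17 was 805 ± 176 TPM in vehicle and 654 ± 107 TPM with dexamethasone, and the libraries overlapped. Vehicle replicate 3, at 1069 TPM, raised the vehicle mean and so lowered most of these estimates. The other vehicle libraries, at 713 to 722 TPM, lay within the 542 to 791 TPM of the dexamethasone libraries. Hmgcs1 was level, at 57.3 ± 7.31 and 62.8 ± 14.3 TPM, while Sqle, at 39.6 to 69.3 and 31.4 to 48.2 TPM, and Idi1, at 34.8 ± 9.13 and 28.5 ± 10.6 TPM, were not called either.

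None of the 6 regulators and carriers was called at 24 h. Srebf1 was at 27.2 ± 3.42 and 25.7 ± 1.34 TPM, Srebf2 at 65.3 ± 8.76 and 64.3 ± 6.04 TPM and Scap at 23.9 ± 5.69 and 28.7 ± 3.99 TPM. Insig1 was at 38.7 ± 5.59 and 37.4 ± 8.90 TPM, Insig2 at 67.4 ± 11.1 and 75.1 ± 9.36 TPM, and Stard4 at 3.82 ± 1.02 and 3.66 ± 1.54 TPM. Their libraries overlapped in every case.

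Adipocyte markers moved with this treatment. The 10 listed summed to between 31.5 and 44.4 TPM in vehicle and to between 159 and 229 TPM with dexamethasone, and 3 of the 4 that could be tested were higher. Adipoq, Plin1, Cidec, Lep, Retn and Cfd, which define adipocytes, were under 0.5 TPM in both groups. Fibroblast markers summed to between 2069 and 3448 TPM in vehicle and to between 1296 and 1513 TPM with dexamethasone, with 3 of the 8 tested lower and 1 higher. Reserve cell markers summed to between 330.4 and 364 TPM and to between 617 and 768 TPM, with 4 of 10 higher and 3 lower, and no proliferation marker was called. Macrophage markers were near 0, with Ptprc, Adgre1, Csf1r and Itgam under 0.5 TPM in all 6 groups. The part of these markers in the results on Scd1, Abca1 and Ch25h was not tested.

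Other genes of the pathway at 24 h included Acss2, which makes acetyl-CoA from acetate, higher from 8.52 ± 0.770 to 15.7 ± 1.34 TPM. It was the 1 higher call among 12 other sterol enzymes, of which 3 were lower. Counts of this and the following lists stand beside 13.2% higher and 12.2% lower over all genes tested. In the SREBP processing list 4 of 15 were higher and none lower, led by Erlin2, which helps degrade sterol-regulated proteins, from 29.5 ± 3.36 to 70.5 ± 12.9 TPM. Uptake and transport had 4 of 20 higher and 3 lower, with Vldlr from 10.1 ± 4.65 to 33.3 ± 12.8 TPM and Cav1, the caveolae protein, from 84.9 ± 10.6 to 45.5 ± 17.0 TPM. The liver X receptor list had 2 of 12 higher, led by the partner receptor Rxra (log2 difference 0.47), and 2 lower, led by Arl4c (-0.84). Of 29 other fatty acid genes, 7 were higher, with the acyl-CoA synthetase Acsl4 at a log2 difference of 0.67, and 6 lower, with Elovl7 under 0.5 TPM in both groups (-1.14).

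At 72 h of dexamethasone, Ch25h, Abcg1, Mylip and single enzymes were called, and most calls were lower. In all, 7 genes were lower and 2 higher than in vehicle at 72 h, and this 25.0% stands beside 30.3% of all genes tested, 15.2% in either direction. The median log2 difference was -0.12, beside 0.01 over all genes. Without both replicate 1 libraries 10 genes were lower and 1 higher, beside 30.7% of all genes called (15.1% higher, 15.7% lower). On log2(TPM + 0.1), 8 were lower and 1 higher, beside 26.6% of all genes (11.5% higher, 15.1% lower). Without dexamethasone replicate 1 alone, 13 were lower and 1 higher, beside 33.7% of all genes called, 16.8% in either direction.

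Ch25h stood at 7.01, 6.01, 4.90 and 11.0 TPM in vehicle and at 2.04, 0.269, 0.539 and 0.693 TPM with dexamethasone, without overlap. It was 8.16-fold lower (log2 difference -2.02, SE 0.23, adjusted p = 1.47e-06). Replicate 1 was the highest treated library, and without both replicate 1 libraries the fold was 14.6 (log2 difference -2.30, adjusted p = 6.02e-08). Abcg1 went from 2.22, 2.38, 3.82 and 2.22 TPM to 1.63, 0.942, 0.825 and 0.670 TPM, 2.62-fold lower without overlap (log2 difference -0.94, SE 0.20, adjusted p = 0.00121), and 3.46-fold lower without replicate 1. Mylip went from 17.2, 29.9, 28.1 and 24.5 TPM to 12.3, 8.98, 10.9 and 8.88 TPM. It was 2.42-fold lower without overlap (log2 difference -0.85, SE 0.15, adjusted p = 0.000145), and 2.86-fold lower without both replicate 1 libraries. Abca1, by contrast, was level at this time: it stood at 2.12, 1.90, 3.58 and 1.38 TPM in vehicle and at 1.79, 1.60, 4.10 and 1.63 TPM with dexamethasone (log2 difference 0.01, SE 0.28, adjusted p = 0.991).

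Sterol synthesis had 2 lower calls, both in the ring steps. Ebp went from 105, 207, 129 and 201 TPM to 87.1, 96.9, 70.3 and 91.5 TPM, 1.85-fold lower without overlap (log2 difference -0.56, SE 0.15, adjusted p = 0.00577), and 2.07-fold without both replicate 1 libraries. Cyp51 went from 60.0, 77.3, 43.0 and 78.5 TPM to 58.9, 36.6, 34.1 and 30.6 TPM, 1.62-fold lower with overlap (adjusted p = 0.0253). The overlap of Cyp51 came from dexamethasone replicate 1 and vehicle replicate 3, and without both replicate 1 libraries it was 1.96-fold lower (adjusted p = 0.00471). The Cyp51 call was lost without vehicle replicate 2 or 4 or dexamethasone replicate 2, 3 or 4 (adjusted p up to 0.0904). None of the 9 genes of the mevalonate and squalene steps was called, although all 9 estimates lay below 0, and Pmvk was lower on log2(TPM + 0.1) (adjusted p = 0.0384). Hmgcs1 was at 71.7 ± 14.6 and 59.5 ± 16.1 TPM, Sqle at 55.8 ± 14.1 and 48.5 ± 12.2 TPM and Idi1 at 36.4 ± 8.06 and 36.3 ± 12.7 TPM. The 17 enzymes summed to 802 ± 159 TPM in vehicle and to 618 ± 128 TPM with dexamethasone, with overlap. Without both replicate 1 libraries the sums were 914, 618 and 955 TPM in vehicle and 612, 547 and 513 TPM with dexamethasone. They did not overlap, but the nearest libraries, at 618 and 612 TPM, were close. Ebp, called lower by itself, made up 207, 129 and 201 TPM of the vehicle sums and 96.9, 70.3 and 91.5 TPM of the dexamethasone sums. With Ebp left out, vehicle replicate 3 would lie below dexamethasone replicate 2, so the sums would overlap and the separation depends on Ebp. In the fit without both replicate 1 libraries, 9 of 9 mevalonate and squalene genes and 7 of 8 ring-step genes had estimates below 0. Among these, Ebp and Cyp51 alone were called, and the signs are not independent.

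Of the regulators, Srebf1 was lower at 72 h, from 35.3, 40.1, 39.4 and 40.9 TPM to 34.5, 26.4, 33.7 and 26.2 TPM. It was 1.29-fold lower without overlap (log2 difference -0.24, SE 0.07, adjusted p = 0.0103), with an adjusted p of 0.0524 without dexamethasone replicate 2. Srebf1 was 1.40-fold lower without both replicate 1 libraries (adjusted p = 0.00186). Srebf2 (72.9 ± 7.67 and 63.1 ± 4.38 TPM), Scap (32.0 ± 4.03 and 35.6 ± 2.86 TPM) and Insig1 (47.4 ± 10.4 and 38.4 ± 14.4 TPM) were not called. Neither were Insig2 (75.4 ± 8.85 and 73.5 ± 12.1 TPM) and Stard4 (4.93 ± 1.07 and 7.00 ± 1.92 TPM).

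Fatty acid genes were split. Elovl6 stood at 2.54, 2.10, 0.843 and 1.60 TPM in vehicle and at 4.84, 4.58, 3.10 and 3.47 TPM with dexamethasone. It was 2.26-fold higher without overlap (log2 difference 0.85, SE 0.26, adjusted p = 0.017), 2.46-fold higher without both replicate 1 libraries (adjusted p = 0.0232), and not called without vehicle replicate 3 (adjusted p = 0.0715). Acly went from 23.1, 29.5, 19.4 and 26.5 TPM to 34.2, 33.0, 28.9 and 28.9 TPM, 1.27-fold higher with overlap (adjusted p = 0.0381). Acly was lost on log2(TPM + 0.1) (adjusted p = 0.0871), without both replicate 1 libraries (adjusted p = 0.154), in 7 of 9 alternatives other than single libraries left out (adjusted p up to 0.264), and without vehicle replicate 1 or 3 or dexamethasone replicate 1, 2 or 4 (adjusted p up to 0.147). Scd2 went from 363, 383, 430.5 and 378 TPM to 317, 249, 287 and 225 TPM, 1.44-fold lower without overlap (adjusted p = 0.00796). It was 1.56-fold lower without both replicate 1 libraries and was not called after quantile normalisation (adjusted p = 0.0502). Without both replicate 1 libraries, Fads1 (1.39-fold, adjusted p = 0.0039), Fads2 (1.78-fold, adjusted p = 0.019) and Elovl5 (1.24-fold, adjusted p = 0.0158) were lower as well. Scd1 was at 211 ± 40.7 and 254 ± 15.8 TPM, Fasn at 22.6 ± 4.16 and 26.3 ± 3.27 TPM and Acaca at 14.1 ± 1.40 and 15.6 ± 1.10 TPM, and none of these was called.

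Markers of other cell states also differed at 72 h. Fibroblast markers summed to between 2437 and 3740 TPM in vehicle and to between 186 and 1199 TPM with dexamethasone, where replicate 1 held the 1199, and 7 of the 8 tested were lower. Proliferation markers summed to between 88.0 and 136 TPM in vehicle and to between 243 and 630 TPM with dexamethasone, and all 8 were higher. Reserve cell markers summed to between 317 and 480 TPM and to between 495 and 761 TPM, with 3 of 10 higher and 4 lower. Adipocyte markers summed to between 37.3 and 63.9 TPM and to between 118 and 170.5 TPM, with 2 of the 4 tested higher. Myotube markers had 3 of 11 higher and 1 lower, and 1 of 5 macrophage markers tested was higher. Without both replicate 1 libraries 7 myotube markers were higher and 1 lower, 3 reserve cell markers were higher and 5 lower, and the counts of the other 4 lists were as given. Their part in the results at 72 h was not tested.

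The wider pathway at 72 h had 5 of 12 other sterol enzymes higher and none lower, led by Lbr from 16.4 ± 1.74 to 24.7 ± 2.59 TPM, and 2 higher and 1 lower without both replicate 1 libraries. In SREBP processing 3 of 15 were higher, led by Erlin2 from 40.7 ± 10.1 to 74.3 ± 9.85 TPM, and 1 was lower, the activating protease Mbtps1, from 54.8 ± 7.99 to 38.7 ± 7.81 TPM, with the same counts without both replicate 1 libraries. Uptake and transport had 5 of 20 higher and 3 lower (5 and 4 without both replicate 1 libraries), with Lrp8 from 1.44 ± 0.361 to 5.90 ± 0.894 TPM and the sterol carrier Stard5 from 9.69 ± 2.26 to 4.15 ± 2.44 TPM. In the liver X receptor list 5 of 12 were lower and none higher, and 3 were lower without both replicate 1 libraries. Pltp, which transfers phospholipids between lipoproteins, went from 69.4 ± 11.1 to 20.3 ± 13.6 TPM. Of 29 other fatty acid genes 7 were higher and 4 lower, with and without both replicate 1 libraries. Prkaa2 went from 7.76 ± 1.51 to 15.4 ± 2.69 TPM and Scd4 from 0.531 ± 0.118 to 0.269 ± 0.164 TPM. The counts of these lists stand beside 15.2% of all genes tested in either direction. Without both replicate 1 libraries the shares were 15.1% higher and 15.7% lower.

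Whether the response changed between 24 h and 72 h was tested as the difference of both responses, 72 h minus 24 h. Of the 36 genes, 3 were called (8.33%, beside 11.3% of all genes tested, 5.56% higher and 5.77% lower). Abca1 was higher with dexamethasone at 24 h and level at 72 h, a difference of -1.96 on the log2 scale (SE 0.40, adjusted p = 0.00289). Mylip was level at 24 h and lower at 72 h (-0.83, SE 0.21, adjusted p = 0.0114). Elovl6 had an estimate of -0.33 at 24 h, not called, and was higher at 72 h (1.18, SE 0.37, adjusted p = 0.0409). The Abca1 and Mylip calls stood in all 16 fits with 1 library left out, with adjusted p up to 0.00901 and 0.0306, whereas Elovl6 was lost in 11 of the 16 (adjusted p up to 0.0924) and on log2(TPM + 0.1) (0.057).

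Without both replicate 1 libraries at 72 h, 6 genes were called, 5 lower and 1 higher, beside 15.2% of all genes (6.46% higher, 8.71% lower). Fads1 (-0.47, adjusted p = 0.0031), Elovl5 (-0.24, adjusted p = 0.0455) and Abcg1 (-0.92, adjusted p = 0.0332) joined the other 3. On log2(TPM + 0.1) the module had 3 lower and none higher, and all genes split into 599 higher (3.93%) and 1057 lower (6.93%; 10.9% in all), beside 904 and 938 in the main test. The median of all genes shifted by -0.12 on that scale. For Ch25h, which was lower at both times, the difference between the responses was not called (0.81, adjusted p = 0.115). The sterol enzymes and the SREBP genes had no call in this test, and the largest estimate among them was -0.53 for Dhcr7 (adjusted p = 0.0869).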

How the data were processed

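Polyadenylated RNA of 24 C2C12 libraries was analysed. The submitters' processing notes name the build GRCm39 and, without saying which step each served, kallisto 0.51.1, Salmon and DESeq. The authors deposited normalised log2 values (-2.33 to 20.06), by a method not given in the sources used here, and TPM that sum to 1000000 per library. Tables were joined by gene identifier for 48543 genes. Depth is unknown, so no counting interval is given. The slope of differences in the log2 table on those of log2 TPM was 0.547 to 0.674.

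Genes whose value, taken out of log2, reached 10 in 4 or more libraries (16257) were tested with limma 3.58.1 (limma-trend, R 4.3.3) on the deposited log2 values, all 24 libraries in 1 fit with 1 mean per group, and again on log2(TPM + 0.1) (15249 genes that reached 0.5 TPM in 4 or more libraries). The code was checked on simulated data. The labels do not say what a replicate number stands for. Deviations from group means correlated in all 4 same-numbered pairs of day 0 and day 7 (0.145 to 0.212), of dexamethasone and vehicle at 24 h (0.201 to 0.391) and at 72 h (0.117 to 0.338). Numbers therefore tended to pair libraries there, as a pattern in the data. At 72 h, however, dexamethasone replicate 2 correlated more with vehicle replicate 4 (0.162) than with vehicle replicate 2 (0.117). In all, 14 of 24 libraries had their highest mean correlation with their own number. Over all groups the median was 0.123 for 60 same-numbered pairs (31 over 0.1) and -0.06 for 180 others (33 over 0.1). Alternatives were log2(TPM + 1), no filter, a stricter filter of 50, quantile normalisation, a replicate block, only the groups compared, and leaving out libraries. The members, pathway lists, marker lists and motifs were chosen with earlier results of these data known. Values in every library are given for the 3 largest called rises and falls of a comparison and for a fixed list of members, and of each pathway list the largest called rise and fall are named, except some genes that are not reported here. Marchf6 and Mymk were not analysed here. The glucocorticoid response element was searched on both strands like the other motifs.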

Additional observations from a re-analysis of the deposited data

Results flagged for a closer look

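In 9 of 216 groups of 4 libraries, 1 library stood far from the other 3 by the 95% limit of Dixon's test, which chance passes in about 1 of 20 groups. Vehicle 24 h replicate 3 was high for 3 sterol enzymes: Mvd at 23.1 TPM (others 15.8 to 16.9), Fdft1 at 59.7 TPM (34.5 to 35.7) and Cyp51 at 84.9 TPM (53.4 to 57.7). Day 7 replicate 1 was high for Mvk at 27.8 TPM (20.6 to 21.1) and low for Mylip at 9.39 TPM (17.9 to 18.8). Myoblast replicate 1 was low for Acat2 at 76.0 TPM (89.7 to 90.3). Dexamethasone 24 h replicate 1 was high for Elovl6 at 2.12 TPM (0.675 to 0.742). Replicate 3 at 72 h was high for both exporters, for Abca1 with dexamethasone at 4.10 TPM (1.60 to 1.79) and for Abcg1 with vehicle at 3.82 TPM (2.22 to 2.38).

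The response to dexamethasone differed between 24 h and 72 h by the interaction term of limma for 3 genes, as log2 differences of 1.18 for Elovl6 (adjusted p = 0.0409), -1.96 for Abca1 (adjusted p = 0.00289) and -0.83 for Mylip (adjusted p = 0.0114).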

How the results depend on the processing

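Over all alternatives run, no called gene changed direction. The count of 27 genes called in differentiation ranged from 25 to 27 with 1 library left out, and the 7 of dexamethasone at 24 h from 5 to 10. The 9 at 72 h ranged from 6 to 14 (all genes: 3892 to 5472, and 4931 with all libraries), and the 3 of the difference of responses from 2 to 4, with 6 without both replicate 1 libraries. For vehicle 24 h minus day 7 (1 call, 34 over all genes), the count was 0 on log2(TPM + 0.1), log2(TPM + 1), with no filter and with only the groups compared (all genes: 0 to 5), 2 with the stricter filter (43), 3 with the replicate block (109), and 0 to 6 with 1 library left out (0 to 328). For vehicle 72 h minus 24 h (2 calls, 709 over all genes), it was 1 on log2(TPM + 1) (264), after quantile normalisation (626) and without both replicate 1 libraries (380), 0 with no filter (94) and with only the groups compared (4), 4 with the replicate block (1067), and 0 to 3 with 1 library left out (2 to 1751). Leaving out both replicate 1 libraries on log2(TPM + 0.1), an alternative chosen after seeing the data, gave 0, as over all genes. The cause was not tested.

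In differentiation and in both dexamethasone comparisons, where same-numbered libraries deviated together, the replicate block changed no call of a member. Elsewhere it ended no call and added Dhcr7 (adjusted p = 0.0382) to the difference of responses, Sc5d and Stard4 to vehicle 24 h minus day 7, and Hsd17b7 and Scd1 to vehicle 72 h minus 24 h. In these vehicle comparisons the correlations of same-numbered pairs ran from -0.01 to 0.492 and from -0.25 to 0.565, so the numbers do not pair all libraries.

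Unknown depth leaves counting error unstated, which matters most below 1 TPM, as for Abca1 in myoblasts and Ch25h with dexamethasone.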
